A study of Mus musculus with 19 samples.

Results

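The CD4+ T cell repertoire of the mediastinal lymph node, which drains the heart, was compared between mice with a myocardial infarction (MI) and mice with sham surgery. The comparison used every library labelled as mediastinal node, 7 of the 19 in the series: 3 taken after MI and 4 after sham surgery. The mice were of the strain Balb/c. In the MI group the left anterior descending coronary artery was ligated, and in the sham group the chest was opened and the artery was left untied. Operated mice of both groups received buprenorphine under the skin at 0.1 mg/kg for 72 h, and the nodes were taken on day 7. From each node sample 500000 CD4+ TCRβ+ cells were sorted at a purity above 98% and used as RNA. The labels give no age or sex and do not say whether a library came from 1 animal or from a pool, so the p-values below measure the spread between these samples. The sham group shares the operation, the opioid and the day, so among the factors that the labels give, the groups differ by the ligation. Only T cell receptor β (TRB) transcripts were amplified. No marker of CD4+ T cells or of another cell type was measured, and the label of the sort is taken as given.

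A T cell receptor β chain is assembled in the thymus by joining a V, a D and a J gene segment. The joint, with bases added and removed at random, forms the third complementarity-determining region (CDR3), the loop that lies over the antigen peptide. Cells that descend from the same precursor carry the same CDR3, so a CDR3 with many reads in a library can mark a large clone. It can also mark a clone with much receptor RNA, or several clones with the same amino acid sequence. Reads per CDR3 differed between segments too, as described further on. These sources of reads cannot be told apart here. The lymph node that drains an injured organ is where naive CD4+ T cells meet antigen carried from that organ and divide before they leave. Each deposited entry was a CDR3 amino acid sequence with its TRBV and TRBJ segment and its number of reads. Sequences are printed as deposited, so neither the conserved cysteine before the loop nor the phenylalanine after it is included.

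The MI nodes held 7555217, 8472098 and 9154238 reads and 200785, 230684 and 140864 distinct CDR3s. The sham nodes held between 8400085 and 9235800 reads, with 107650, 109097, 212131 and 52869 distinct CDR3s in sham nodes 1 to 4. Sham node 4 thus listed the fewest CDR3s from an ordinary number of reads. In sham node 4, 30.5% of entries were 1 substitution from an entry with the same segments and at least 100 times its reads, against 1.63% to 10.1% in the other 6 nodes. Group differences that sham node 4 moves most are given with and without it.

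Of 12 values computed once per library, 1 did not overlap between the groups, and it concerned clones found in a single node. A CDR3 was called expanded where it held at least 0.01% of the reads of its library, and private where none of the other 6 mediastinal nodes listed it. Of 153 private expanded CDR3s in the MI nodes, 7 were also listed in an infarcted heart, and each of these was in the heart with the same sample number. Of 1018 in the sham nodes, 1 was listed in a heart. The 8 sequences are shown because this result turns on them. The name before each gives the node and the heart that listed it.

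MI node 1 and heart 1, TRBV16 with TRBJ2-7: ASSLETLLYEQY
MI node 1 and heart 1, TRBV1 with TRBJ2-4: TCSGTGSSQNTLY
MI node 2 and heart 2, TRBV14 with TRBJ1-4: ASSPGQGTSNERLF
MI node 3 and heart 3, TRBV14 with TRBJ1-1: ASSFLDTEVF
MI node 3 and heart 3, TRBV19 with TRBJ1-5: ASKRTVNNQAPL
MI node 3 and heart 3, TRBV13-2 with TRBJ1-4: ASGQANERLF
MI node 3 and heart 3, TRBV1 with TRBJ1-1: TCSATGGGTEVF
Sham node 4 and heart 1, TRBV19 with TRBJ1-3: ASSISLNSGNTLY

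The 7 sequences of the MI nodes used 5 TRBV and 5 TRBJ segments and were 10 to 14 residues long, and no segment or length was common to all. In each case the heart listed the CDR3 with the same TRBV and TRBJ as the node, and no other heart listed it. The hearts come from MI mice of the same strain and day, with 5000 sorted CD4+ cells per library. The labels give hearts and MI nodes the same numbers without saying that a number marks an animal.

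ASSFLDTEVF had 7037 reads in MI node 3, where it was the largest private CDR3, and 171644 reads in heart 3, where it was the most abundant CDR3 of all with 3.35% of reads. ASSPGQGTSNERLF had 1086 reads in MI node 2 and 145259 in heart 2, where it also ranked 1 with 3.30% of reads. Both are TRBV14 clones that lead a heart and pass the expansion threshold in the node of that number.

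ASKRTVNNQAPL had 5898 reads in MI node 3 and 32556 in heart 3. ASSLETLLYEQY had 3877 reads in MI node 1 and 3659 in heart 1, where it ranked 171. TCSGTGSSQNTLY had 1458 reads in MI node 1 and 15485 in heart 1. In number 1 the order of both clones in the heart was thus the reverse of that in the node.

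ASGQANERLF had 1289 reads in MI node 3 and 16582 in heart 3, and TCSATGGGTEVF had 1129 and 3604, so that the 4 clones of number 3 kept their order. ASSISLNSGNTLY, the sham node's sequence, had 963 reads in sham node 4 and 85 in heart 1, which is under the 100 heart reads set for naming and was added after its values were seen. The axillary nodes, taken from mice injected with adjuvant alone or with cardiac antigen, listed 4 of the 7 MI sequences, at 2 to 345 reads at most.

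As a percentage of the private expanded CDR3s of each node, those listed in a heart were 4.44%, 2.94% and 5.41% in MI nodes 1 to 3, with 95% Wilson intervals of 1.23% to 14.8%, 0.521% to 14.9% and 2.12% to 13.1%. They were 0% in sham nodes 1, 2 and 3, with upper limits of 2.26%, 2.14% and 27.8%, and 0.150% in sham node 4, with an interval of 0.0265% to 0.846%. The intervals cover counting error only, since they take each private CDR3 as an independent trial and leave out the spread between nodes. Every MI node lay above every sham node. All 3 hearts are from MI mice and hearts of sham mice were not analysed here, so only the MI nodes had a heart of their own number, and the surgery and the shared number cannot be told apart in this comparison. In hearts of another number, 0 of the 153 private expanded CDR3s of the MI nodes were listed, beside the 1 of 1018 of the sham nodes. The means were 4.26% ± 1.24 (SD, n = 3) and 0.0375% ± 0.0751 (n = 4). A two-sided exact permutation test over the 35 ways to split the libraries gave p = 0.0286, the smallest this design allows. Adjusted with Benjamini-Hochberg over the 12 values tested this way, p was 0.343, so the result did not pass 0.05.

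The axillary nodes gave a related measure in mice without surgery. Summed over these 9 libraries, 3847 expanded CDR3s were listed in no mediastinal node, though some may be in several axillary nodes, and 3 were in a heart, which is 0.0780%. Widely shared CDR3s were in hearts more often, in both groups. Of the expanded CDR3s that all 6 other nodes listed, hearts listed 12.0% to 15.6% in the MI nodes and 8.64% to 13.7% in the sham nodes, and these ranges overlap. Of those that 1 or 2 other nodes listed, hearts listed 5.26%, 0% and 5.56% in MI nodes 1 to 3, each in the heart of the same number. In sham nodes 1 to 4 the percentages were 0.909%, 1.47%, 0% and 1.42%, so the groups overlapped here too.

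The expansion threshold is a share of reads, and segments differed in reads per CDR3, as described further on. With a threshold of 10 times the median reads of the segment in that library, a rule added after seeing the data, 5 of 123, 2 of 109 and 7 of 50 private CDR3s of MI nodes 1 to 3 were in a heart. All 14 were in the heart of the same number. Of the 72, 81, 39 and 21 private CDR3s of sham nodes 1 to 4 under that rule, none was in any of the 3 hearts. With a stricter idea of privacy the difference was gone. A CDR3 1 substitution away, with the same TRBV and TRBJ in another mediastinal node, then also ended privacy. The MI nodes kept 17.3 ± 11.4 private expanded CDR3s (n = 3) and the sham nodes 82.5 ± 85.1 (n = 4), and hearts listed 0% of them in every node. So few private CDR3s in the MI nodes leave little room for a difference to show. The threshold also set the size of the difference: at 0.005% of reads the means were 1.01% ± 0.312 in the MI nodes (n = 3) and 0.282% ± 0.237 in the sham nodes (n = 4), with an exact permutation p of 0.0571 (adjusted 0.229). At 0.05% the difference was 50 percentage points (exact permutation p = 0.143), but the MI nodes then held a mean of 2.33 private CDR3s.

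The relation was also read from the heart's side, chosen after its values were seen and given as a description. Of the heart CDR3s with at least 100 reads, 88, 109 and 133 in hearts 1 to 3 were listed in exactly 1 mediastinal node. That node was the MI node of the same number for 45, 59 and 66 of them, which is 51.1%, 54.1% and 49.6%. The 4 sham nodes together accounted for 28.4%, 24.8% and 29.3%. With every listed heart CDR3, down to 2 reads, 331, 436 and 519 were in exactly 1 node. The node of the same number then held 28.4%, 32.8% and 30.4%, and the 4 sham nodes together held more, 45.6%, 42.4% and 39.3%. At 100 or more reads each of the other MI nodes held between 5 and 16. Sham node 3, which listed the most CDR3s of the sham nodes, held 10, 14 and 23.

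**Figure D1:**
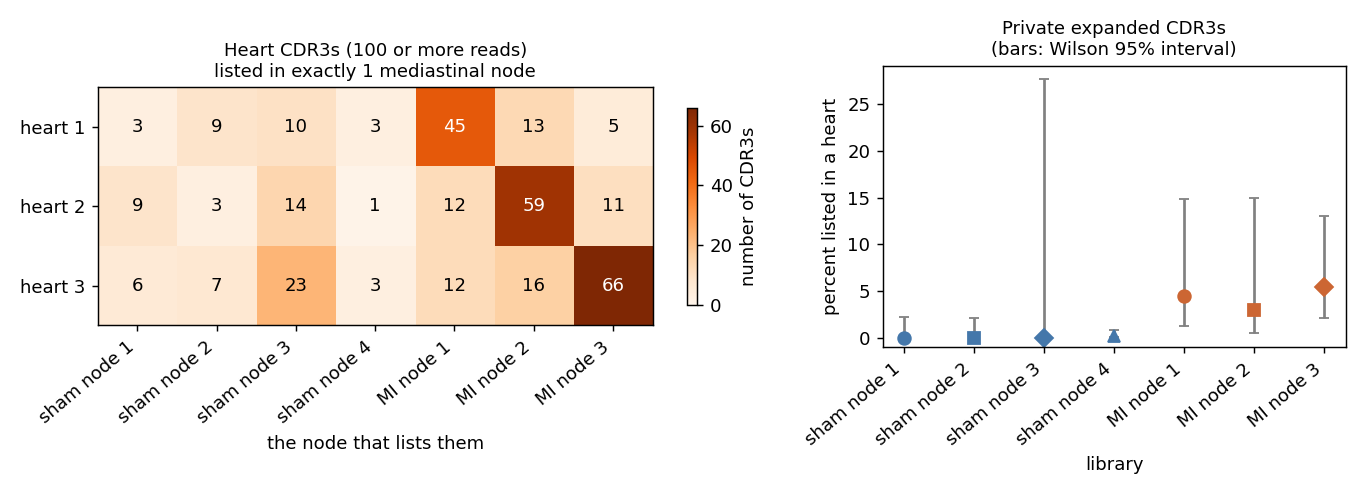
Left, the number of heart CDR3s with at least 100 reads that exactly 1 mediastinal node listed, by heart (rows) and by the node that listed them (columns); the MI node of the same number holds 45, 59 and 66. Right, the percent of each node's private expanded CDR3s that were listed in any heart, with 95% Wilson intervals as bars; the 3 MI nodes lie between 2.94% and 5.41% and the 4 sham nodes between 0% and 0.150%.

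The number of private expanded CDR3s did not separate the groups. It was 45, 34 and 74 in the MI nodes and 166, 176, 10 and 666 in sham nodes 1 to 4. Sham node 3 lay below every MI node and the other sham nodes above them. The two-sided exact permutation p was 0.343 (adjusted 0.457). Private expanded CDR3s held 0.806%, 0.781% and 1.17% of reads in the MI nodes and 2.44%, 2.86%, 0.159% and 11.6% in the sham nodes (exact permutation p = 0.343, adjusted 0.457). Of all expanded CDR3s, 13.8%, 11.9% and 15.8% were private after MI and 21.9%, 23.0%, 4.41% and 32.1% after the sham operation (p = 0.429 by exact permutation, 0.514 when adjusted). Under the threshold relative to the segment median the number turned round, with more in the MI nodes by a mean difference of 40.75. Sham node 4 alone held 666 of the 1018. Without it the mean difference in number moved from -203.5 to -68.0, that in reads from -3.35 to -0.944 percentage points and that in the private percentage from -6.52 to -2.82 points. Without sham node 3 they moved the other way, to -315.7, -5.25 points and -13.4 points, and the groups then did not overlap (exact permutation p = 0.1, the smallest for 3 against 3, adjusted 0.12).

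Private expanded CDR3s were longer than those that many nodes shared. Their mean length was 12.4, 13.0 and 12.1 residues in MI nodes 1 to 3 and 12.6, 12.4, 12.3 and 12.5 in sham nodes 1 to 4. Expanded CDR3s listed in all 6 other nodes averaged 11.4 to 11.6 residues in every node. The order private over shared held in 7 of 7 libraries. TRBV14 supplied 40%, 47.1% and 63.5% of private expanded CDR3s in the MI nodes and 57.2%, 62.5%, 100% and 25.8% in the sham nodes.

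The largest private CDR3s of each MI node were often listed in a heart or an axillary node. In MI node 2, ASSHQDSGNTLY (TRBV5, TRBJ1-3) held 8719 reads, followed by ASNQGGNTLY (TRBV14, TRBJ1-3) with 6172 and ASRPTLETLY (TRBV19, TRBJ2-3) with 4876. In MI node 1, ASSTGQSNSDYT (TRBV19, TRBJ1-2) held 3940 reads and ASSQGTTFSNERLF (TRBV5, TRBJ1-4) 3425. Axillary nodes listed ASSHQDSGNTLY at up to 1402 reads, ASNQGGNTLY at 18 and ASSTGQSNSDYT at 20. No heart listed these 5, and none listed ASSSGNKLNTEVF (TRBV14, TRBJ1-1), the third of MI node 3 with 4169 reads. Of the 9 leading private CDR3s of the MI nodes, 3 per node, hearts listed 3: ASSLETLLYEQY, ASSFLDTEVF and ASKRTVNNQAPL. Of the 12 leaders of the sham nodes, none was in a heart. The largest of these were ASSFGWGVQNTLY (TRBV14, TRBJ2-4) in sham node 4 with 10533 reads, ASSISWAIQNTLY (TRBV19, TRBJ2-4) in sham node 2 with 6632, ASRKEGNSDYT (TRBV19, TRBJ1-2) in sham node 1 with 6194 and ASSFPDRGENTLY (TRBV14, TRBJ2-4) in sham node 3 with 5395.

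Clones shared by the nodes were next. Over the 7 nodes 4077 distinct CDR3s were expanded in at least 1, of which 3659 were expanded in exactly 1 and 14 in all 7. Pairs of MI nodes had 65 to 80 expanded CDR3s in common, pairs of sham nodes 62 to 108 and pairs of an MI and a sham node 65 to 90. The nodes differed in how many CDR3s were expanded, 327, 286 and 467 in MI nodes 1 to 3 and 758, 766, 227 and 2072 in sham nodes 1 to 4. The counts in common were not scaled to these numbers, so they do not show whether sharing was alike. All 7 nodes listed 760 of the 4077, and among them 12 were higher and 26 lower in the MI nodes without overlap, which is 38 of 760 with no test.

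The 5 shared CDR3s with the largest mean share are shown as the public part of the repertoire, each with the pair that held most of its reads in the node where its share was highest. That pair led in all 7 nodes for the 3 with TRBV5, in 4 for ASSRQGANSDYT and in 2 for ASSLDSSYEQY, and the shares below sum all pairs of a CDR3.

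TRBV14 with TRBJ2-7: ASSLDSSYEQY
TRBV5 with TRBJ1-3: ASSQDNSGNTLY
TRBV19 with TRBJ1-2: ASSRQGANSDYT
TRBV5 with TRBJ2-5: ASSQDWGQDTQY
TRBV5 with TRBJ1-4: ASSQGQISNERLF

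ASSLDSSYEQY led only through sham node 4, where it held 0.399% of reads, against 0.00321% to 0.00989% in the other 6 nodes. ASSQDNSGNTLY held 0.0170%, 0.0250% and 0.0493% of reads in the MI nodes and 0.0329%, 0.0245%, 0.0189% and 0.0459% in the sham nodes. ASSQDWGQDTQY held 0.0252%, 0.0262% and 0.0216% after MI and 0.0218%, 0.0298%, 0.0198% and 0.0520% after sham surgery. The groups overlapped for all 5.

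Of CDR3s expanded in at least 1 MI node, 8 were listed in all 3 MI nodes and in no sham node. Each was large in 1 node and small in the others: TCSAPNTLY (TRBV1, TRBJ2-4) had 30, 33 and 3429 reads in MI nodes 1 to 3, and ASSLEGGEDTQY (TRBV14, TRBJ2-5) had 2, 76 and 3228. Of CDR3s expanded in at least 1 sham node, 27 were listed in 3 or 4 sham nodes and in no MI node. Most of the 27 reached 0.01% of reads in sham node 4. Expanded CDR3s numbered 286 to 467 per MI node and 227 to 2072 per sham node, with the most in sham node 4. The 2 counts also rest on different rules, 3 of 3 libraries against 3 or 4 of 4, and are not compared.

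Clone size classes varied widely among sham nodes, and the groups overlapped in every class. After each library was thinned to 7555217 reads, CDR3s of at least 1000 reads held 3.36%, 2.81% and 4.39% of reads in the MI nodes and 8.31%, 8.15%, 1.61% and 27.9% in sham nodes 1 to 4. Sham node 3 lay below every MI node and sham node 4 far above. CDR3s of 100 up to 1000 reads held 43.1%, 39.3% and 56.5% after MI and 62.0%, 62.0%, 43.4% and 63.7% after sham surgery. CDR3s of 10 to 99 reads held 49.0%, 52.3% and 36.8% after MI and 28.2%, 28.3%, 50.3% and 7.65% after sham surgery. Those under 10 reads held 4.51%, 5.57% and 2.30% against 1.54%, 1.56%, 4.64% and 0.837%. The order of the classes was thus the same in sham node 3 as in MI nodes 1 and 2, with the most reads in CDR3s of 10 to 99, while MI node 3 and the other sham nodes had the most in CDR3s of 100 up to 1000.

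**Figure D2:**
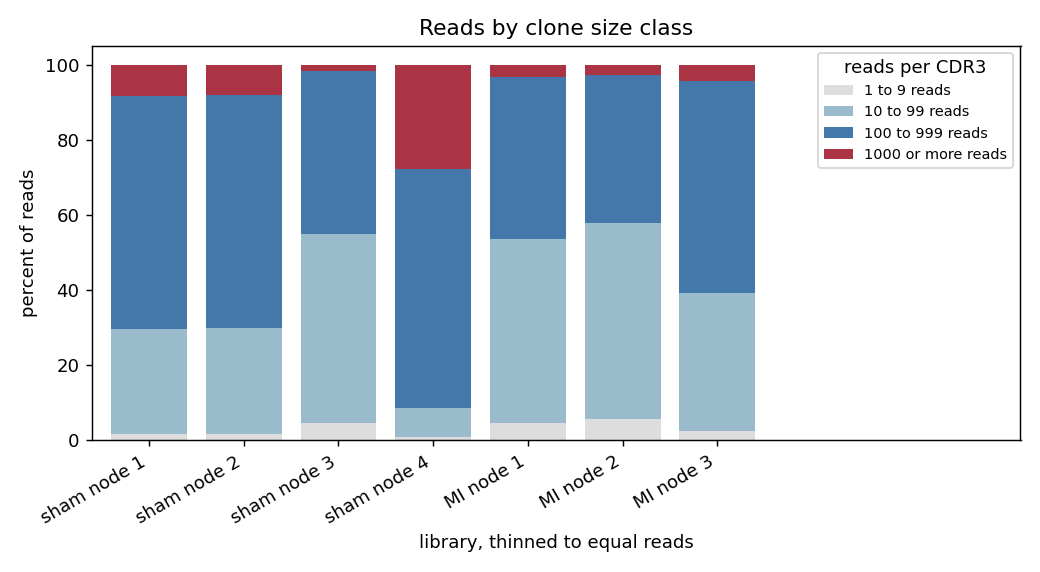
Percent of reads (bar height, stacked to 100%) in 4 classes of reads per CDR3, for each of the 7 mediastinal libraries thinned to 7555217 reads. CDR3s of at least 1000 reads take 27.9% in sham node 4 and 1.61% to 8.31% in the other 6 nodes, the MI nodes 2.81% to 4.39%. MI node 2 has the highest share of the 7 in both classes under 100 reads and the lowest in the class of 100 up to 1000.

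By exact two-sided permutation tests none of the 4 classes separated the groups: p was 0.314 for at least 1000 reads, 0.171 for 100 up to 1000, 0.171 for 10 to 99 and 0.200 for under 10, each with an adjusted p of 0.457. The smallest number of CDR3s that held 50% of reads was 19240, 21993 and 12779 in the MI nodes and 9265, 9252, 20710 and 3512 in the sham nodes (exact permutation p = 0.171, adjusted 0.457). The number of CDR3s with at least 1000 reads was 167, 141 and 204 after MI and 367, 363, 87 and 1205 in the sham nodes (p = 0.314 by exact permutation, 0.457 when adjusted). Without sham node 4 the mean difference in the share of the largest class moved from -7.96 to -2.50 percentage points and that in the number from -334.8 to -101.7. Without sham node 3 the share differed by -11.3 points and the CDR3s of at least 1000 reads by -474.3 (each with an exact permutation p of 0.1, adjusted 0.12).

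The size of a clone in reads depended on its segment and library. Among CDR3s of at least 10 reads, the median was 128, 112 and 288.5 reads for TRBV14 in the MI nodes and 352, 384, 148 and 966.5 in the sham nodes. For TRBV13-2 it was 17, 17 and 23 after MI and 27, 26, 19 and 71 after sham surgery. Sham node 4 had the highest median for both segments, and the groups overlapped. TRBV14 and TRBV19 took up most of the largest class. TRBV14 gave 29.9%, 30.5% and 45.6% of the CDR3s of at least 1000 reads in the MI nodes and 46.2%, 50.9%, 45.7% and 28.7% in the sham nodes of the full libraries. TRBV19 gave 20.8% to 37.5% and lay above TRBV14 in MI node 1 (31.1%) and sham node 4 (37.5%). TRBV14 supplied 0.572% to 2.44% of the CDR3s of 10 to 99 reads. What sets these medians was not tested.

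**Figure D3:**
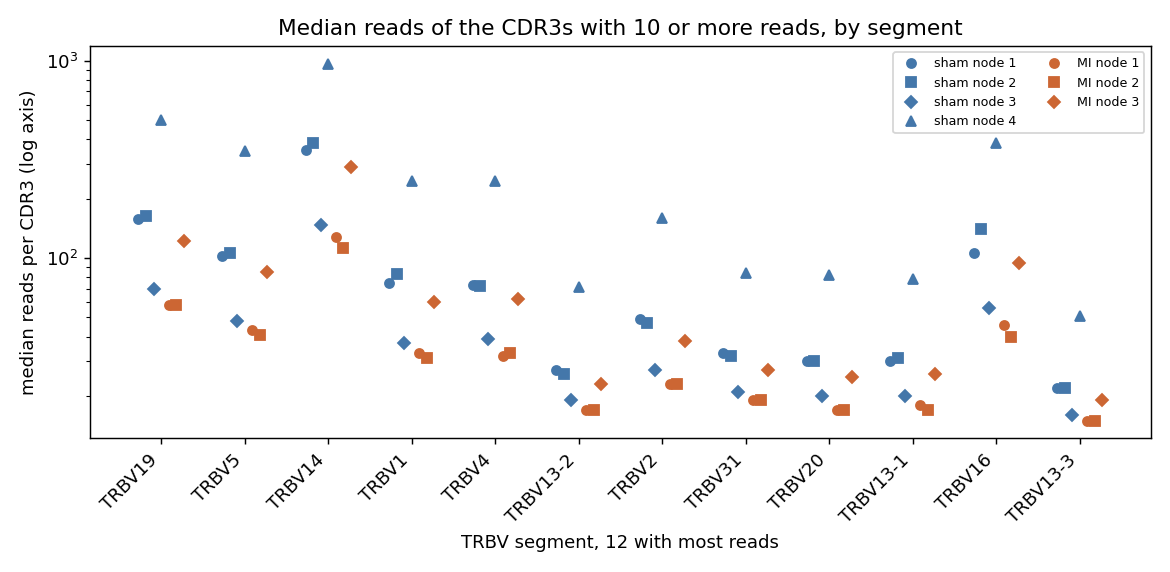
Median reads per CDR3 (log axis) among CDR3s of at least 10 reads, for the 12 TRBV segments with the most reads, in the 3 MI nodes (orange) and the 4 sham nodes (blue). The order of the libraries is alike from segment to segment, with sham node 4 highest, and TRBV14 reaches 112 to 966.5 reads where TRBV13-2 has 17 to 71.

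For every TRBV segment the share of expanded CDR3s overlapped between the groups. Of the expanded CDR3s, counted once each, TRBV14 gave 34.6%, 29.0% and 46.0% in the MI nodes and 45.1%, 49.1%, 46.7% and 23.7% in the sham nodes. TRBV19 gave 28.4% ± 0.558 (n = 3) and 28.0% ± 7.79 (n = 4). Of 14 TRBV segments tested with the quasi-likelihood test of edgeR, 0 passed (0% called). Before adjustment 0 were under 0.05, and 0 passed in DESeq2. The 4 segments with the smallest p, none of which passed, were TRBV12-2 (log2 fold change MI over sham 1.49, SE 1.09), TRBV15 (-1.96, SE 1.62), TRBV4 (0.44, SE 0.386) and TRBV5 (0.20, SE 0.290), each with an edgeR adjusted p of 0.996. TRBV12-2 and TRBV15 rested on few clones, with no expanded TRBV15 CDR3 in MI nodes 1 and 2.

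The pairing of V with J segments was close to the same after MI and sham surgery. All 242 possible pairs of 22 TRBV and 11 TRBJ segments were tested on reads. By edgeR 0 passed (0% called), and 5 were under 0.05 before adjustment. In DESeq2 0 passed, and 7 were under 0.05 before adjustment. In simulated data with this design, edgeR recovered 45% of pairs changed 1.5-fold, 70% of pairs changed 2-fold and 90% of pairs changed 4-fold. The shares of 10 pairs did not overlap between the groups, 4.13% of those tested, and 5 of the 10 were higher after MI.

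The pair with the smallest p was TRBV1 with TRBJ1-2. It held 0.358%, 0.368% and 0.384% of reads in the MI nodes and 0.309%, 0.343%, 0.295% and 0.296% in the sham nodes, without overlap. On the log2 scale it was higher by 0.25 (SE 0.0866), with an adjusted p of 0.992 in edgeR. Its largest CDR3 held 2.48%, 2.66% and 12.8% of the pair's reads in MI nodes 1 to 3, the most in MI node 3. Whether the groups would overlap without these CDR3s was not tested.

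TRBV20 with TRBJ1-4 held 0.483%, 0.494% and 0.550% after MI and 0.455%, 0.404%, 0.482% and 0.425% after sham surgery, also without overlap (log2 fold change 0.21, SE 0.0750). TRBV4 with TRBJ1-5 held 0.286%, 0.299% and 0.289% against 0.266%, 0.253%, 0.253% and 0.183% (0.29, SE 0.126). TRBV4 with TRBJ1-2 held 0.628%, 0.717% and 0.645% against 0.616%, 0.584%, 0.583% and 0.496% (0.22, SE 0.100). For both TRBV4 pairs sham node 4 was the lowest library. TRBV14 with TRBJ2-3 was lower after MI, at 1.52%, 1.42% and 1.51% against 1.57%, 1.70%, 1.73% and 1.87% (-0.21, SE 0.0964). TRBV2 with TRBJ2-2 held 0.206%, 0.221% and 0.213% against 0.269%, 0.248%, 0.203% and 0.267% (-0.21, SE 0.0992), where sham node 3 lay among the MI nodes. Each of these had an edgeR adjusted p of 0.992.

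The most abundant pairs were built from TRBV19, which encodes Vβ6, and TRBV5, which encodes Vβ1. TRBV19 with TRBJ1-1 held 3.59%, 3.69% and 4.05% of reads after MI and 4.17%, 3.44%, 3.29% and 3.12% after sham surgery. TRBV19 with TRBJ1-4 held 3.18% ± 0.151 (n = 3) and 2.99% ± 0.226 (n = 4), and TRBV5 with TRBJ2-7 held 3.04% ± 0.275 and 2.97% ± 0.143. TRBV5 with TRBJ1-1 held 2.78% ± 0.217 and 2.64% ± 0.112, and TRBV5 with TRBJ2-5 held 2.52% ± 0.138 and 2.67% ± 0.209. The groups overlapped for these 5. TRBV19 with TRBJ2-1 did not overlap, at 2.38%, 2.40% and 2.45% after MI and 2.57%, 2.66%, 2.45% and 3.22% after sham surgery (log2 fold change -0.18, SE 0.0938, edgeR adjusted p = 0.992), but MI node 3 and sham node 3 stood at nearly the same value.

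Pairs leaned by J cluster. The TRBJ1 and TRBJ2 segments lie in separate clusters, each with its own D segment and constant gene. Of 110 pairs with a TRBJ1 segment, 83 had a positive fold change, with a median of 0.09 on the log2 scale, and of 132 with a TRBJ2 segment 24 did, with a median of -0.09. The median of all pairs was -0.03. The TRBJ1 pairs summed to a mean of 42.4% of reads after MI and 39.7% after sham surgery, and shares of 1 cluster rise only as those of the other fall. For each TRBJ1 segment the groups overlapped. Sham node 1 held 15.0% of reads with TRBJ1-1 and 12.8% with TRBJ1-4, above every MI node. In sham nodes 2 to 4 both shares lay below every MI node. Among the TRBJ2 segments only TRBJ2-2 did not overlap. It held 5.51%, 5.71% and 5.68% of reads after MI and 5.86%, 5.97%, 6.01% and 6.05% after sham surgery, with no test. Of the 22 pairs with TRBJ1-2, 19 were positive, the same number as with TRBJ1-1. None of these lists contained a pair that passed. Counted as distinct entries in place of reads, 61 of 107 TRBJ1 pairs and 56 of 130 TRBJ2 pairs were positive, and 11 of 22 with TRBJ1-2. Without sham node 4, 67 of 110 TRBJ1 pairs were positive (median 0.05), and without MI node 3, 66 of 110 (median 0.04). The 33 pairs of the TRBV13 family had 12 positive fold changes and a median of -0.08, and the 22 of the TRBV12 family 10 and -0.03.

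**Figure D4:**
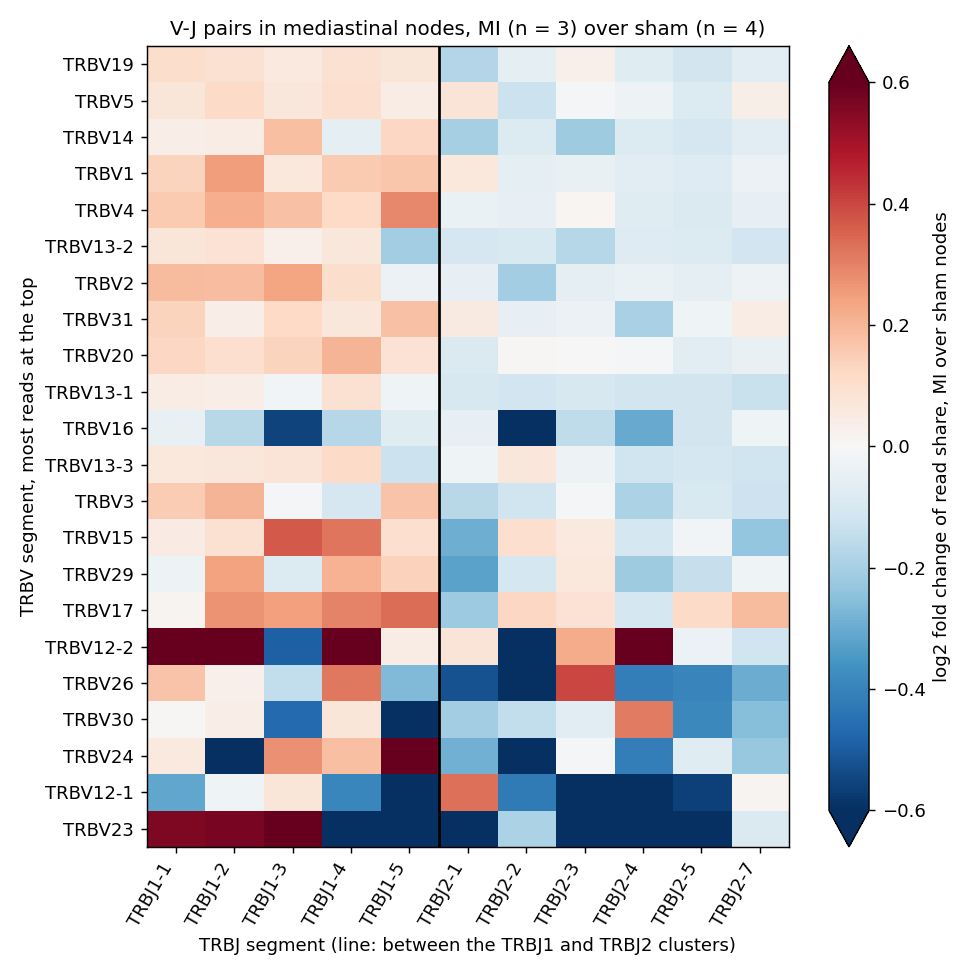
Log2 fold change of the read share, MI (n = 3) over sham nodes (n = 4), for 242 pairs of a TRBV segment (rows, most reads at the top) and a TRBJ segment (columns); red is higher after MI and the scale stops at the ends of the colour bar. TRBJ1 pairs left of the line are mostly positive (83 of 110) and TRBJ2 pairs mostly negative (108 of 132), and the strongest colours lie in the segments with the fewest reads.

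Some segments met more or less often than their own shares would give, in every node. TRBV3 with TRBJ2-5 exceeded the product of its segment shares by 1.19 to 1.44 on the log2 scale over the 7 nodes. TRBV20 with TRBJ1-2 did so by 0.55 to 0.86 and TRBV4 with TRBJ1-2 by 0.56 to 0.84. TRBV5 with TRBJ1-2 stood at -1.17 to -0.90 and TRBV14 with TRBJ1-2 at -0.94 to -0.34. These 5 were chosen after their values were seen, among pairs of at least 0.1% of reads. The dependence over all pairs, as mutual information between V and J, was 0.0349, 0.0342 and 0.0308 bits in the MI nodes and 0.0320, 0.0335, 0.0328 and 0.0407 bits in the sham nodes (two-sided exact permutation p = 0.771, adjusted 0.842), with sham node 4 the highest.

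CDR3 length had the same bell shape in all 7 nodes. A length of 12 residues was the most frequent, with 30.2%, 30.1% and 30.2% of reads in the MI nodes and 30.2%, 30.0%, 29.9% and 29.6% in the sham nodes. Length 13 followed with 25.0% ± 0.498 (n = 3) and 25.3% ± 0.380 (n = 4), then length 11 with 19.5% ± 0.0559 and 19.7% ± 0.169, length 14 with 10.02% ± 0.0741 and 10.1% ± 0.185 and length 10 with 8.86% ± 0.420 and 8.48% ± 0.182. Lengths 9 (2.61% and 2.64%) and 15 (2.72% and 2.70%) were alike too.

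Of 21 lengths tested, 0 passed by edgeR (0% called), with 1 under 0.05 before adjustment, and 0 passed in DESeq2. The lengths of the 2 groups did not overlap at 1 of 21, which is 4.76%. This was length 11, with 19.53%, 19.47% and 19.42% after MI and 19.94%, 19.66%, 19.60% and 19.57% after sham surgery (log2 fold change -0.02, SE 0.0194, edgeR adjusted p = 0.786). Length 10 differed by 0.06 on the log2 scale (SE 0.0411), with an adjusted p of 0.786 in edgeR and MI node 3 the highest library at 9.32%. The length under 0.05 before adjustment was 2 residues, at a mean of under 0.01% of reads. Lengths under 8 and over 17 residues each held under 0.1% of reads in every node. The standard deviation of length within a library was 1.36, 1.37 and 1.39 residues in the MI nodes and 1.37, 1.37, 1.37 and 1.37 in the sham nodes (two-sided exact permutation p = 0.857, adjusted 0.857).

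**Figure D5:**
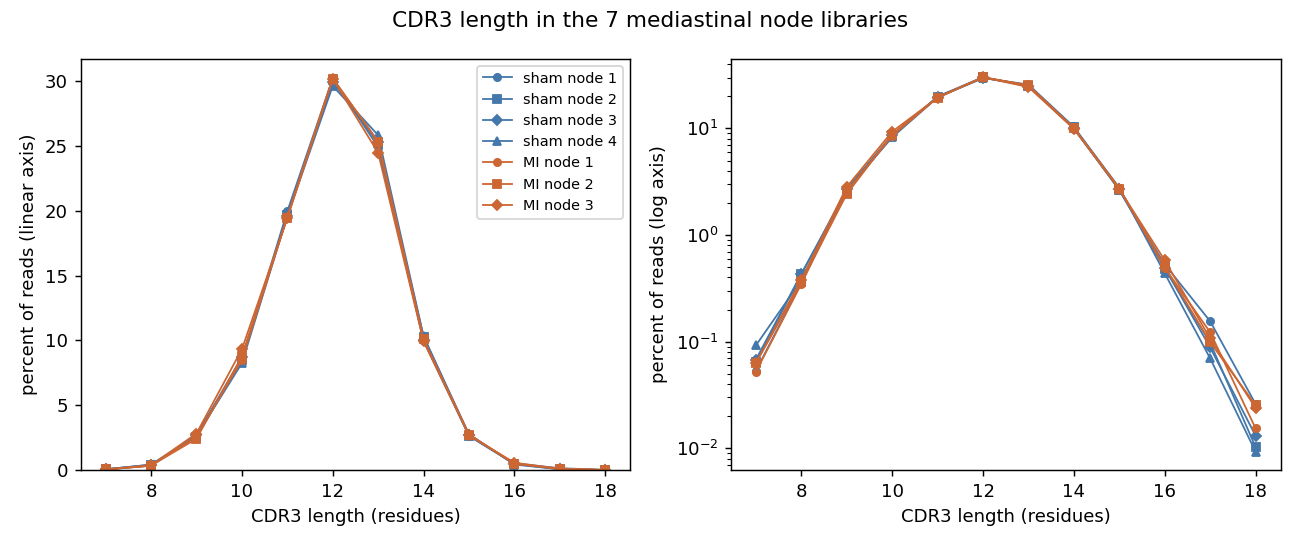
Percent of reads by CDR3 length, 7 to 18 residues, in the 3 MI nodes (orange) and the 4 sham nodes (blue), on a linear axis at left and a log axis at right. The lines lie on top of each other between 8 and 16 residues, with a peak near 30% at 12 residues.

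Mean length differed more between segments than between the groups. Reads with TRBV5 averaged 12.67 residues after MI and 12.67 after sham surgery, and those with TRBV2 12.59 and 12.62, while those with TRBV20 averaged 11.26 and 11.23. Among J segments, TRBJ2-2 averaged 12.73 and 12.75 residues and TRBJ2-7 11.44 and 11.42. TRBV13-2, a segment of the Vβ8 family, did not overlap between the groups, at 12.044, 12.050 and 12.052 residues after MI and 12.080, 12.100, 12.063 and 12.109 after sham surgery, a difference of 0.0393 residues with no test. Segment by length, 311 combinations were tested. By edgeR 0 passed (0% called), and 4 were under 0.05 before adjustment. In simulated data of this design edgeR recovered 20% of combinations changed 2-fold and 40% of those changed 4-fold. In DESeq2 1 passed.

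The 4 combinations with the smallest p held few reads. TRBV14 with 6 residues had 435, 350, 217 and 0 reads in sham nodes 1 to 4 and 0 in every MI node, and was the DESeq2 call, with an adjusted p of 2.54e-07 against an edgeR adjusted p of 0.999. TRBV16 with 4 residues had 38, 147 and 3 reads in the MI nodes and 0 in every sham node. TRBV12-2 with 3 residues had 106 and 232 reads in sham nodes 1 and 2 and none elsewhere, and TRBV17 with 19 residues had 10 and 23 reads in MI nodes 1 and 2 and none elsewhere. None of the 4 held over 435 reads in a library.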

How the data were processed

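Sorted CD4+ T cells of 7 mediastinal nodes were compared, 3 after MI and 4 after sham surgery, as the labels group them. Per the labels' protocols, TRB transcripts were amplified by multiplex PCR and the libraries, pooled by equal mass, were read on an Illumina HiSeq. The authors deposited whole-number read counts per CDR3, TRBV and TRBJ, not normalised. No listed count is under 2, so a CDR3 that is not listed may have had 1 read. Aligner, error correction and segment reference: not given in the sources used here. No molecular identifiers are mentioned.

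Pairs, lengths and segments were tested in R 4.3.3 with edgeR 4.0.16, by its quasi-likelihood test (robust, legacy settings, library total as offset) in a fit of the 16 node libraries in 5 groups. Features needed a read in at least 3 libraries and 20 reads in all. P-values were adjusted with Benjamini-Hochberg at 0.05. Expanded CDR3s per TRBV, counted once each, needed 20 over the 16 libraries. DESeq2 1.42.0 was an alternative. Values per library were compared by exact two-sided permutation. Size classes, but not privacy, were computed after thinning to 7555217 reads. The edgeR tests of V-J pairs and of segment by length were checked on simulated data, and the other tests were not. Others tried were TMM factors, the 7 nodes alone, filters, thresholds, distinct entries and leaving out each library.

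The members and lists were chosen with earlier results of these data known. The rule for names took the 6 pairs with the smallest p (none passed) and the 6 most abundant, every length, the 4 segment-by-length combinations and the 4 segments of expanded CDR3s with the smallest p, the 3 largest private CDR3s per node, private CDR3s with at least 100 heart reads, and the 5 most abundant CDR3s listed in all 7 nodes. Names outside it are given as such.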

Additional observations from a re-analysis of the deposited data

Results flagged for a closer look

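Among the 34 sets of 4 sham values checked for a library far from the rest, 3 held one, and chance gives about 5% of such sets. Sham node 3 had 43.4% of its reads in CDR3s of 100 up to 1000 reads, where the other sham nodes had 62.0% to 63.7%. Sham node 4 had 0.150% of its private expanded CDR3s in a heart, a single CDR3, where the other sham nodes had 0%. Beside 3 values of 0 any other value is flagged, so this flag says nothing about its size. Sham node 4 had 0.183% of its reads in TRBV4 with TRBJ1-5, where the other sham nodes had 0.253% to 0.266%.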

How the results depend on the processing

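Counts of calls stayed at 0 in 62 settings, and DESeq2 gave 1 segment-by-length call. Of the 12 permutation tests under other settings, 149 values kept their direction and 9 turned or lost it, and none passed after adjustment (lowest adjusted p 0.1). The mean difference in the number of private expanded CDR3s was 40.75 and in their reads 0.264 percentage points with the threshold relative to the segment median, and that in the percentage of expanded CDR3s that were private was 19.0 points at a threshold of 0.05%. The percentage of private CDR3s listed in a heart differed by 0 when a near neighbour ended privacy, and by 3.44 to 4.32 points when any 1 library was left out. Leaving out entries under 10 reads gave -0.00042 residues for the SD of length and 8.46e-05 bits for mutual information. Leaving out each library gave -0.00458 to 0.00706 residues and -0.00238 to 0.000517 bits. Depth limits the private class, since a CDR3 with 1 read in another node would not be listed there.

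Same-numbered MI and sham nodes did not deviate together (correlations of -0.00163, 0.000931 and -0.0264 over 72776 CDR3s), so the main tests treated them as unpaired. This check did not cover the hearts and cannot exclude another link between libraries of the same number. With the number as a replicate block, 0 pairs, lengths, combinations or segments were called, mutual information differed by 0.000517 bits, lengths 19 and 24 turned to 5.12 and 1.08, and the smallest permutation p possible was 0.25.

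Among named features 34 values turned direction and 580 did not, and the cause was not tested. By distinct entries, log2 fold changes were -0.0035 for TRBV4 with TRBJ1-2, 0.11 for TRBV2 with TRBJ2-2, -0.20 and -0.14 for TRBV19 with TRBJ1-1 and TRBJ1-4, -0.15 and -0.17 for TRBV5 with TRBJ2-7 and TRBJ1-1, and 0.066, -0.018, 0.0061, 0.014 and -0.014 for lengths 8, 12, 13, 14 and 18. DESeq2 gave -0.0041 and -0.0040 for lengths 12 and 15, and leaving out entries under 10 reads -0.14 for length 20. For expanded CDR3s, TRBV4 gave -0.092 at 0.005%, and TRBV5 -0.13 at 0.05% and -0.019 with TMM factors. Leaving out each library gave -0.014 to 0.11 for TRBV5 with TRBJ2-7, -0.51 to 2.02 and -0.079 to 0.45 for expanded TRBV12-2 and TRBV5, -10.69 to 0.45 for length 3, -0.043 to 0.67 for 5, -0.077 to 0.035 for 9, -0.023 to 0.0014 for 13, -0.056 to 0.36 for 17, -1.89 to 1.15 for 19, -0.26 to 1.80 for 20 and -4.47 to 1.37 for 21.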
